A study of Mus musculus with 267 samples.

Results

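The regions described here are the binding sites of the transcription factor PU.1 in bone marrow-derived macrophages of 4 mouse strains, before and after interleukin-4 (IL-4). They were the 698518 peaks of 8 peak lists, of 1958695 peaks in the 54 lists of the series, and comprised a basal and a 24 h IL-4 list for each strain. A peak of the 24 h list that shared no base with a peak of the basal list of the same strain was called gained, a peak of the basal list with no overlap in the 24 h list was called lost, and the others were called shared. The strains were NOD/ShiLtJ (abbreviated NOD), the wild-derived SPRET/EiJ (SPRET) and PWK/PhJ (PWK), and BALB/cJ (BALB), with C57BL/6J (C57) as a further comparison. Bone marrow of female mice of 8 to 12 weeks was differentiated for 7 days with M-CSF, and the macrophages were left untreated (basal) or given 20 ng/mL mouse IL-4 for 24 h. Chromatin immunoprecipitation with sequencing (ChIP-seq) was performed in biological replicates, and each PU.1 list was made from 2 libraries. A list therefore carries no replicate spread, and the depth of the PU.1 libraries is not known from the lists. The H3K27ac and H3K4me2 tables kept 2 libraries per strain and condition.

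PU.1, encoded by Spi1, is an ETS family factor that defines the macrophage lineage. It binds DNA with a GGAA core together with other factors, and it opens the enhancers at which signal-dependent factors act. IL-4 activates STAT6, which induces further factors such as EGR2 and PPARg and drives the alternative activation programme of macrophages. Acetylation of histone H3 at lysine 27 (H3K27ac) marks active enhancers and promoters, and dimethylation at lysine 4 (H3K4me2) marks enhancers and promoters more broadly.

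The sequences below are shown because each held a PU.1 peak in the list of 1 condition only. PU.1 signal below the peak lists was not read. They are the central 200 bases of a peak, plus strand of mm10 (GRCm38), read from the RefSeq GRCm38.p6 assembly. They are those of the C57BL/6J reference and not of the strain's own genome. Capitals mark matches on either strand to a PU.1 core (AGGAAG), a STAT6 motif (TTC and GAA spaced by 4 bases) or an EGR motif (GTGGGNG). The first 4 sites were gained in all 4 strains, the next 2 were lost in all 4 strains, and the last was gained in SPRET alone. They lie at chr17:27968040-27968239 (nearest gene start Anks1), chr10:78300135-78300334 (Agpat3), chr16:10781221-10781420 (Socs1), chr13:112407342-112407541 (Il6st), chr2:33870520-33870719 (Mvb12b), chr5:115575048-115575247 (Gcn1l1) and chr13:62895288-62895487 (Fbp1).
Anks1: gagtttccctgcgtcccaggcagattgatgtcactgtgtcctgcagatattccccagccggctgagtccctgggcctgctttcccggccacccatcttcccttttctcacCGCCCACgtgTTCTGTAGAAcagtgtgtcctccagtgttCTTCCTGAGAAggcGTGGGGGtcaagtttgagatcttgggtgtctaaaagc
Agpat3: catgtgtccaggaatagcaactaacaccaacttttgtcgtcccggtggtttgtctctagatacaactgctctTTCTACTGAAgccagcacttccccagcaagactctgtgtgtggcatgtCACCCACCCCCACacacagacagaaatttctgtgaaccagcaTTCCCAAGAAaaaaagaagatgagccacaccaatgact
Socs1: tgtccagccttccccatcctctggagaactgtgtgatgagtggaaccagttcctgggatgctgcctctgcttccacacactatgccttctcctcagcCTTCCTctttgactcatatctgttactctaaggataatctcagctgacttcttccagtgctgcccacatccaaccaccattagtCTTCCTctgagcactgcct
Il6st: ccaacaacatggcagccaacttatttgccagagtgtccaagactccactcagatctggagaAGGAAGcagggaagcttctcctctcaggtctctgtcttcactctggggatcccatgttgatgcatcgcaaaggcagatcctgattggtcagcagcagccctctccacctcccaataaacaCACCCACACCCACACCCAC
Mvb12b: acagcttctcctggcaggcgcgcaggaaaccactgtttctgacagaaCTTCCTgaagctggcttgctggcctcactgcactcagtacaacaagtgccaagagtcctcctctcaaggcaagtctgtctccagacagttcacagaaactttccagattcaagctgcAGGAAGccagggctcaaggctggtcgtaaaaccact
Gcn1l1: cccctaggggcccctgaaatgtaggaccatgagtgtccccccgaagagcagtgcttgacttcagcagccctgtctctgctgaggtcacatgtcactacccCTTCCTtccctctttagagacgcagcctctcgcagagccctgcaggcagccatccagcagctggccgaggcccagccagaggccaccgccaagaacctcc
Fbp1: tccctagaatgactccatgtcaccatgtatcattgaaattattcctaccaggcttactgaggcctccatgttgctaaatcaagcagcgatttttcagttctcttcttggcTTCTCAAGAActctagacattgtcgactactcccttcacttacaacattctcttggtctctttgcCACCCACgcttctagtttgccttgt
The Anks1 sequence holds 2 STAT6 motifs, 1 of which overlaps the single PU.1 core, and 2 EGR motifs. The Agpat3 sequence holds 2 STAT6 and 2 EGR motifs and no PU.1 core, and the Il6st sequence holds 1 PU.1 core and 3 EGR matches at its end, each sharing 1 base with the next. The Socs1, Mvb12b and Gcn1l1 sequences hold PU.1 cores and neither of the other motifs.

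IL-4 was followed by both gain and loss of PU.1 peaks in each strain, and the balance between them differed. In NOD the list grew from 84558 basal to 99217 peaks at 24 h, of which 22857 (23.04%) were gained, while 8199 (9.70%) of the basal peaks were lost. The other lists shrank. BALB went from 90248 to 82863 peaks, with 11630 gained (14.04% of the 24 h list) and 19015 lost (21.1% of the basal list). PWK went from 86707 to 73028 peaks, with 8063 gained (11.04%) and 21742 lost (25.1%). SPRET went from 101317 to 80580 peaks, with 7124 gained (8.84%) and 27861 lost (27.5%). For comparison, 18.9% of the 24 h peaks of C57 were gained and 14.7% of its basal peaks were lost. To within 1 peak, the difference between the gained and the lost peaks of a strain was the difference in length of its lists, so the balance adds nothing to the lengths.

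The peaks that appeared or disappeared were mostly weak ones. Peaks were ranked by the deposited score within a list. Of the strongest 10% of the 24 h peaks, 0.42% were gained in BALB, 0.51% in NOD, 0.29% in PWK and 0.30% in SPRET, and of the weakest 10% between 32.2% (SPRET) and 71.5% (NOD) were gained. Lost peaks had the same distribution, with 0.26% to 0.42% of the strongest 10% of the basal peaks and 40.8% (NOD) to 81.4% (SPRET) of the weakest 10%. The stronger 50% of the 24 h lists held 1100 gained peaks in BALB, 2024 in NOD, 822 in PWK and 596 in SPRET. Some of these lay beside a peak of the other list. A peak of the other list within 500 bp was found for 10.6% to 17.3% of gained peaks and 9.24% to 15.5% of lost peaks, and for 20.4% to 38.3% of the gained peaks among the stronger 50%.

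**Figure D1:**
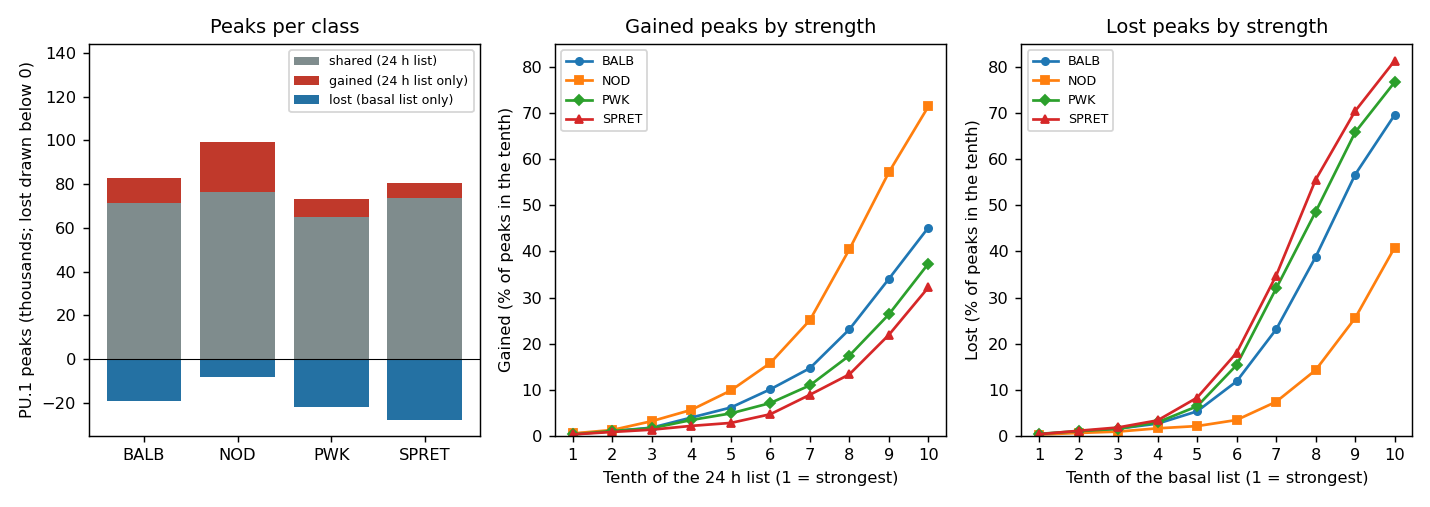
PU.1 peaks per strain by class (left, in units of 1000 peaks, lost peaks drawn below 0) and percent of peaks gained (centre, 24 h list) or lost (right, basal list) in each 10% of a list ranked by strength, 1 being the strongest. Gained and lost shares were 0.26% to 0.51% among the strongest 10% of the lists and were between 32.2% and 81.4% among the weakest.

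Gained sites lay farther from gene starts than shared sites in all 4 strains. The share of gained peaks within 1000 bp of a gene start was 9.75% in BALB, 10.6% in NOD, 13.7% in PWK and 13.2% in SPRET, against 15.03% to 16.3% of shared peaks. The median distance to the nearest gene start was 17304 bp (PWK) to 19825 bp (BALB) for gained peaks. It was 14654 bp (BALB) to 15255.5 bp (SPRET) for shared peaks. Lost peaks resembled shared peaks in BALB (15.9% at promoters) and NOD (15.2%), and in SPRET (12.8%) they resembled gained peaks. Regions with gained peaks were found accessible by ATAC-seq only at 24 h more often than regions with shared peaks. The authors built the regions of each strain's histone table around ATAC-seq peaks and recorded the condition in which the peak was found. Of regions that held gained PU.1 peaks and no other class, 52.8% in BALB, 28.3% in NOD, 40.3% in PWK and 40.8% in SPRET were accessible only at 24 h, against 18.4%, 7.03%, 11.5% and 19.6% of regions with shared peaks. Of regions with lost peaks 18.5%, 38.1%, 25.8% and 23.3% were accessible only in the basal condition, against 8.91%, 20.9%, 17.5% and 14.5% with shared peaks. The other direction was not rare. Gained regions were accessible only in the basal condition in 7.62%, 23.2%, 12.2% and 13.8% of cases, and lost regions only at 24 h in 18.99%, 7.90%, 15.7% and 22.7%, which in BALB and SPRET was about as often as only at basal. Regions without a PU.1 peak were accessible only at 24 h in 37.5%, 19.6%, 37.8% and 36.8% of cases and only at basal in 20.9%, 43.8%, 22.9% and 27.9%, the latter above the lost regions in BALB, NOD and SPRET.

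STAT6 was found at gained PU.1 sites more often after IL-4 than before it in each strain. A STAT6 peak overlapped 1.71% of gained sites in the basal list of BALB and 7.54% in the 24 h list. The shares were 2.37% then 7.30% in NOD, 2.60% then 28.2% in PWK and 7.99% then 19.5% in SPRET. At shared sites STAT6 went from 14.4% to 19.6% in BALB, from 18.9% to 42.1% in PWK and from 29.7% to 36.5% in SPRET, and it went from 23.9% to 22.3% in NOD. At lost sites it went from 1.36% to 1.58% in BALB, from 4.16% to 2.65% in NOD, from 2.61% to 8.89% in PWK and from 5.98% to 6.49% in SPRET. Gained sites were thus occupied by STAT6 less often than shared sites at 24 h, but their share differed more between conditions. The STAT6 lists themselves grew from 11486 to 16432 peaks in BALB, from 14022 to 38679 in PWK and from 28212 to 35742 in SPRET, and had 20653 then 20619 in NOD. Among the stronger 50%, the 24 h STAT6 share of gained sites was 27.6% in BALB, 29.8% in NOD, 60.6% in PWK and 52.3% in SPRET, against 31.6%, 33.3%, 60.6% and 53.9% of shared sites. The basal shares of these gained sites were 8.18%, 9.24%, 10.6% and 24.3%, and those of the shared sites were 23.6%, 34.8%, 30.8% and 44.5%.

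EGR2, a factor induced by STAT6, differed between strains in this respect. Its share of gained sites went from 14.96% to 20.3% in BALB, from 3.21% to 11.5% in PWK and from 5.88% to 25.2% in SPRET. In NOD it went from 11.5% to 8.06%, and the EGR2 list of NOD itself shrank from 25341 to 16604 peaks. The EGR2 lists of BALB, PWK and SPRET grew, in SPRET from 12301 to 39458 peaks, so the shares move with the lengths of the lists. At shared sites EGR2 went the same way, from 20.1% to 22.3% in BALB, from 16.1% to 10.7% in NOD, from 5.05% to 11.5% in PWK and from 9.97% to 25.1% in SPRET, and at 24 h the gained sites of PWK and SPRET held it about as often as the shared ones. PPARg, a nuclear receptor of the alternative programme, overlapped 1.90% of gained sites at basal and 9.53% at 24 h in BALB, 2.997% then 15.4% in NOD, 6.03% then 15.2% in PWK and 6.36% then 7.80% in SPRET. Its shares of shared sites were 5.40% then 17.9%, 10.6% then 28.0%, 15.4% then 23.4% and 16.1% then 16.3%. CEBPb, a basic leucine zipper factor of macrophages, overlapped 4.84% of gained sites at basal and 17.7% at 24 h in BALB, 6.10% then 17.7% in NOD, 14.03% then 23.9% in PWK and 12.8% then 13.9% in SPRET. Its shares of shared sites were 12.3% then 25.3%, 16.6% then 31.6%, 27.7% then 32.0% and 24.7% then 22.7%. The rises of PPARg and CEBPb were thus as large or larger in percentage points at the shared sites of BALB and NOD. The PPARg and CEBPb lists grew in BALB, NOD and PWK, for PPARg in BALB from 6524 to 23578 peaks, and shrank in SPRET, from 19684 to 18487 and from 31109 to 29217.

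**Figure D2:**
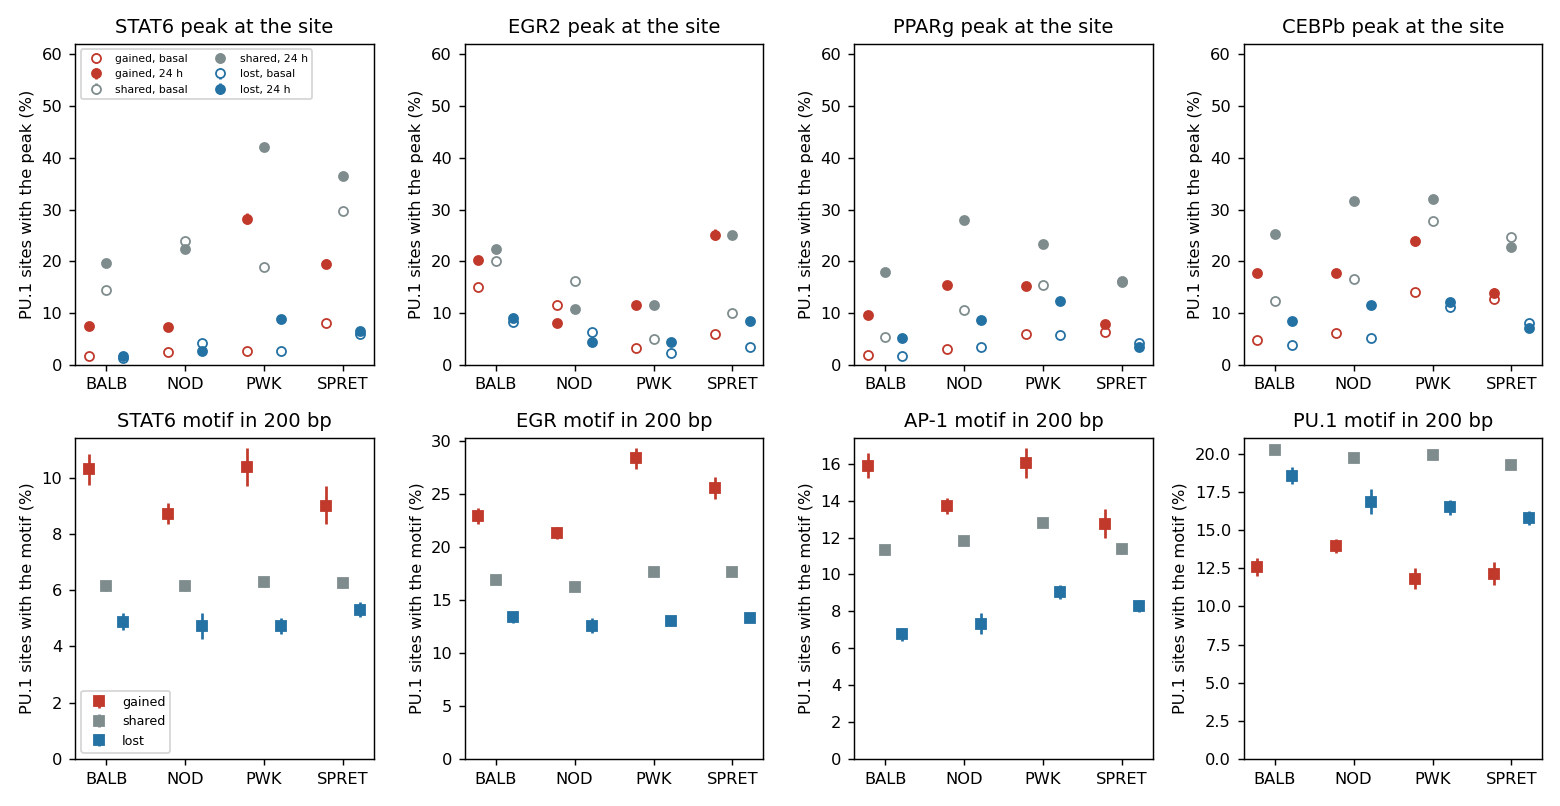
Percent of gained (red), shared (grey) and lost (blue) PU.1 sites that overlapped a STAT6, EGR2, PPARg or CEBPb peak of the basal (open) or 24 h (filled) list of the same strain (top), and percent that held a motif in the central 200 bp of the reference sequence (bottom, bars are exact 95% binomial intervals for counting error). The 24 h STAT6 share of gained sites is above the basal share in all 4 strains, and the gained sites hold STAT6 and EGR motifs more often and the full PU.1 motif less often than shared sites.

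The sequences of gained sites held fewer full PU.1 motifs and more motifs of the IL-4 responsive factors. Motifs were searched on both strands of the central 200 bp in the reference genome, and the STAT6 and PU.1 motifs can overlap each other. The 8 bases GAGGAAGT occurred in 11.8% to 13.98% of gained peaks, 19.3% to 20.3% of shared peaks and 15.8% to 18.6% of lost peaks across the 4 strains. The core AGGAAG, which the longer motif contains, occurred in 55.7% to 58.9%, 63.4% to 65.4% and 59.1% to 64.2%. The STAT6 motif occurred in 8.72% to 10.4% of gained, 6.14% to 6.29% of shared and 4.72% to 5.30% of lost peaks. GTGGGNG, the EGR motif, occurred in 21.3% to 28.4%, 16.2% to 17.7% and 12.6% to 13.4%, and TGANTCA, the AP-1 motif, in 12.7% to 16.05%, 11.3% to 12.8% and 6.75% to 9.04%. The C/EBP motif TTGCNNAA and the IRF motif (GAAA repeated after 2 bases) differed little between gained and shared peaks, at 11.3% to 11.7% against 11.2% to 11.7% and 3.24% to 4.11% against 3.74% to 4.23%. In 200 bp of the 32851 promoters of the RefSeq table the shares were 1.91% for the full PU.1 motif, 24.2% for the core, 4.65% for STAT6, 23.5% for EGR, 5.63% for AP-1, 7.83% for C/EBP and 2.32% for IRF. Among gained peaks of the stronger 50% the EGR motif occurred in 31.6% (BALB), 37.2% (NOD), 40.1% (PWK) and 33.0% (SPRET).

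The label of the cells was checked in the H3K27ac tables. All 8 macrophage markers had a promoter region in each strain, with median levels of 356.1 to 472.8 tags (per 1000 bp region, scaled to 10000000 tags per library) against 28.2 to 40.9 for the median region. All lay above the median region apart from Fcgr1 in SPRET (13.7 tags). Of the markers of other cell types, 1 of 5 for T cells (Cd3d), 1 of 4 for B cells (Ms4a1) and 1 of 6 for neutrophils and progenitors (S100a8) lay above the median region in each strain, and 0 of 3 for fibroblasts, 0 of 3 for mast cells and 0 of 2 for dendritic cells did. The 32 H3K27ac and H3K4me2 libraries held 5825127 to 20991422 tags. The share of H3K27ac tags inside regions was lowest in 24 h replicate 2 of each strain, at 28.7% in BALB against 51.2% to 58.6% in its other libraries.

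H3K27ac at regions with gained PU.1 peaks was higher at 24 h relative to regions with shared peaks in all 4 strains. Regions with lost peaks had medians close to those with shared peaks. The values are tags in 1000 bp, scaled to 10000000 tags per library, and a log2 fold compares 24 h with basal on the log2(tags + 1) scale. In BALB the median log2 fold was 0.34 over 2702 gained regions, -0.37 over 38276 shared regions, -0.33 over 3633 lost regions and -0.30 over all 54022 regions. In NOD the medians were 0.29 over 6437 gained regions, -0.31 over shared, -0.33 over 2151 lost and -0.20 over all regions. PWK gave 0.31 over 2639 gained regions, -0.25 over shared, -0.24 over 5271 lost and -0.18 over all regions. SPRET gave 0.25 over 1673 gained regions, -0.13 over shared, -0.14 over 4925 lost and -0.09 over all regions. Between 62.1% and 63.6% of gained regions had a positive fold in each strain, against 28.4% to 40.3% of shared regions. In such bulk samples, fewer cells with a mark and less mark per cell cannot be told apart.

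At gained regions the libraries behind these medians did not overlap. The levels below are medians per library, and their differences need not equal the medians of the folds above. Relative to the shared regions of the same library, the median log2 level of gained regions in BALB was -1.61 and -1.70 in the basal libraries and -0.62 and -0.47 in the 24 h libraries. The values were -1.57 and -1.80 against -0.85 and -0.77 in NOD, -1.27 and -1.37 against -0.38 and -0.28 in PWK, and -1.42 and -1.39 against -0.65 and -0.65 in SPRET. Both 24 h libraries lay above both basal libraries in each strain, and with 2 against 2 libraries an exact permutation test cannot give a p below 0.333. The gained median fold exceeded the shared median fold by 0.72 log2 units in BALB (0.52 to 0.91 over the 4 pairs of a basal and a 24 h library), 0.61 in NOD (0.44 to 0.78), 0.56 in PWK (0.45 to 0.68) and 0.37 in SPRET (0.33 to 0.39). Without 24 h replicate 2 of BALB, the library with the fewest tags inside regions, the BALB difference was 0.56. The part of the libraries' enrichment in the other differences was not tested. The lost median fold differed from the shared one by 0.04, -0.01, 0.01 and -0.01. In BALB the levels of lost regions relative to shared ones overlapped, at -0.25 and -0.42 in the basal and -0.36 and -0.35 in the 24 h libraries. Relative to shared regions, lost regions lay lower in both 24 h libraries than in both basal libraries in NOD (-0.65 and -0.77 against -0.50 and -0.64), PWK (-0.54 and -0.62 against -0.39 and -0.53) and SPRET (-0.95 and -0.94 against -0.88 and -0.89), by less than gained regions lay higher. Gained regions began from a lower level. Their median in the BALB basal libraries was 16.9 and 14.9 tags, against 53.6 and 50.6 for shared regions, and regions with no PU.1 peak, at 11.8 and 10.1 tags, had a median fold 0.40 above shared regions. The latter difference was 0.52 in NOD, 0.33 in PWK and 0.21 in SPRET, and the part of the low starting level in the gained value was not tested. Among regions of at least 16 tags in either condition the gained median exceeded the shared one by 0.59 in BALB, 0.53 in NOD, 0.50 in PWK and 0.31 in SPRET.

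**Figure D3:**
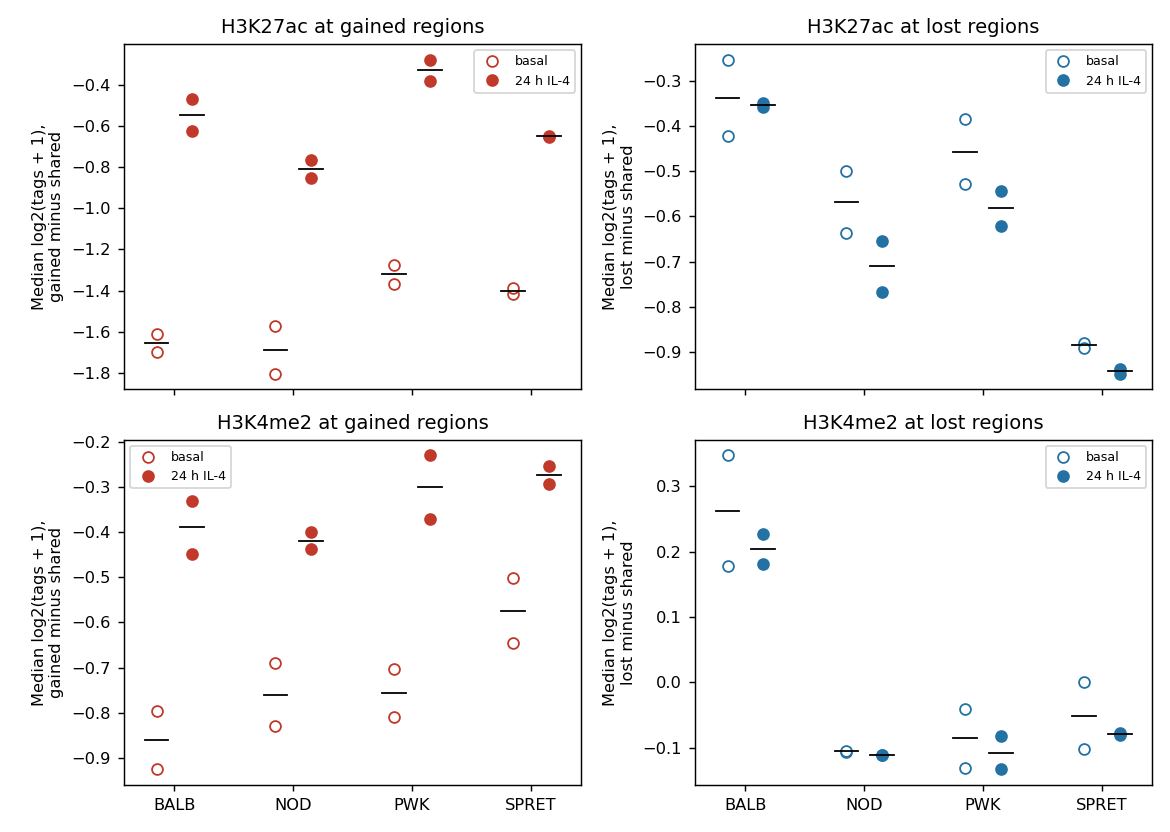
Median H3K27ac (top) and H3K4me2 (bottom) level, as log2(tags + 1), of regions with gained (left) or lost (right) PU.1 peaks minus that of regions with shared peaks in the same library. Points are single libraries, lines are group means, and the vertical axes differ between panels. For gained regions both 24 h libraries lie above both basal libraries in each strain and mark.

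Single regions past the threshold were more frequent among gained regions than among all regions. By limma with Benjamini-Hochberg adjusted p under 0.05, H3K27ac was higher at 24 h in 271 of 2702 gained regions of BALB (10.0%), against 1.6% of all regions, and lower in 4, against 0.653%. In NOD it was higher in 19 of 6437 gained regions (0.295%), against 0.0566%, and lower in 0, against 0.0%. The unadjusted p was under 0.05 with lower H3K27ac in 128 gained regions of NOD, against 4765 of all 68932 regions, and edgeR called 0. In PWK 83 of 2639 gained regions were higher (3.15%), against 0.487%, and 1 was lower, against 0.0482%. In SPRET 76 of 1673 were higher (4.54%), against 0.994%, and 0 were lower, against 0.192%. At an unadjusted p under 0.05, 39 gained regions of SPRET were lower, against 3223 of all 54755 regions, and edgeR called 0 gained regions lower. At lost regions H3K27ac was lower in 36 of 3633 in BALB (0.991%), 0 of 2151 in NOD, 3 of 5271 in PWK and 12 of 4925 in SPRET (0.244%). It was higher in 15 lost regions of BALB, 0 of NOD, 4 of PWK and 11 of SPRET. These shares (0.413%, 0%, 0.0759% and 0.223%) were below those of all regions given above. In NOD 47 lost regions were higher at an unadjusted p under 0.05, against 3813 of all 68932 regions, and edgeR called 1. In NOD the unadjusted p was under 0.05 for 153 lost regions with lower H3K27ac, against 4765 of all 68932 regions, and edgeR called 0. The counts of gained regions called higher depended on single libraries. Without either 24 h library the count was 0 in NOD, PWK and SPRET. Without basal replicate 1 or 2 it was 398 or 408 in NOD, 142 or 299 in PWK and 21 or 47 in SPRET, and in BALB it was 145 without basal replicate 1, 158 without 24 h replicate 1 and 199 without 24 h replicate 2.

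A limit on H3K27ac alone, at least 2.5-fold with at least 16 tags in either group mean, was passed upwards by a larger share of gained regions than of all regions in each strain, without a test. The study used such a limit together with one on Pol II, which was not applied here. In BALB 394 gained regions (14.6%) were past it upwards, against 3.06% of all regions, and 46 (1.70%) downwards, against 5.61%. NOD had 730 (11.3%) upwards, against 3.45%, and 115 (1.79%) downwards, against 5.58%. PWK had 399 (15.1%) upwards, against 3.32%, and 20 (0.758%) downwards, against 3.42%. SPRET had 186 (11.1%) upwards, against 2.9%, and 7 (0.418%) downwards, against 1.09%. Lost regions were past it downwards in 5.89% of cases in BALB, 6.46% in NOD, 3.89% in PWK and 1.10% in SPRET, close to those backgrounds.

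H3K4me2 differed between classes in the same direction by less. The gained median exceeded the shared one by 0.35 log2 units in BALB (0.24 to 0.44 over pairs of libraries), 0.20 in NOD (0.15 to 0.28), 0.30 in PWK (0.24 to 0.40) and 0.19 in SPRET (0.11 to 0.26), and the lost median differed by -0.04, -0.01, -0.01 and -0.02. Regions with no PU.1 peak exceeded shared ones by 0.10, 0.13, 0.16 and 0.23, in SPRET by more than gained regions did. The part of the starting level in the gained value was not tested. The gained medians themselves were -0.30, -0.13, 0.09 and -0.32, where the median over all regions was -0.63 in BALB, -0.30 in NOD, -0.18 in PWK and -0.48 in SPRET. H3K4me2 was higher at 24 h by limma in 6 gained regions of BALB, against 0.0111% of all regions, 62 of NOD, against 0.167%, 71 of PWK, against 0.311%, and 0 of SPRET, against 0.0%. In SPRET 70 of 1673 gained regions were higher at an unadjusted p under 0.05, against 574 of all 54755 regions. At the same cut 390 of these gained regions were lower, against 17177 of all regions. Of the gained regions edgeR called 2 higher and 0 lower. H3K4me2 was lower in 0 lost regions of BALB, against 0.0%, in 3 lost regions of NOD, against 0.0218%, in 0 of PWK, against 0.00332%, and in 0 of SPRET, against 0.0%. At an unadjusted p under 0.05 it was lower in 46 of 3633 lost regions of BALB, 119 of 5271 of PWK and 1792 of 4925 of SPRET. Over all regions the counts were 608 of 54022, 956 of 60175 and 17177 of 54755. Of the lost regions edgeR called 1, 0 and 0. For RNA polymerase II (Pol II) the gained median exceeded the shared one by 0.19 (BALB, libraries overlapping), 0.22 (NOD), 0.27 (PWK) and 0.21 (SPRET), and for H3K4me3, a promoter mark, by 0.16, 0.22, 0.30 and 0.07.

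The H3K27ac fold was larger at gained regions with a STAT6 peak only at 24 h than at those with no STAT6 or EGR2 peak. Gained regions that overlapped a STAT6 peak only at 24 h had a median log2 fold of 1.12 in BALB (526 regions), 1.28 in NOD (1000), 0.78 in PWK (1221) and 0.87 in SPRET (467). Shared regions with a STAT6 peak only at 24 h had medians of -0.16 (5932 regions), 0.16 (4679), -0.11 (12370) and 0.08 (6075). Gained regions with an EGR2 peak only at 24 h had medians of 0.71, 0.81, 0.43 and 0.50, against -0.34, -0.22, -0.18 and -0.06 for shared regions. With neither a STAT6 nor an EGR2 peak in either condition the gained medians were 0.23, 0.21, 0.17 and 0.18, all above the shared medians of -0.34, -0.21, -0.21 and -0.11. Accessibility separated the gained regions as well. Those with an ATAC-seq peak only at 24 h had medians of 0.91, 1.01, 0.94 and 0.74, and those with an ATAC-seq peak in both conditions had medians of -0.17, 0.12, 0.06 and -0.01. Shared regions with an ATAC-seq peak only at 24 h had medians of 0.05, 0.13, 0.08 and 0.05. By PU.1 strength, the gained regions of the stronger 50% of the list had medians of 0.42 in BALB, 0.83 in NOD, 0.42 in PWK and 0.25 in SPRET, against 0.33, 0.23, 0.29 and 0.24 for the weaker ones.

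**Figure D4:**
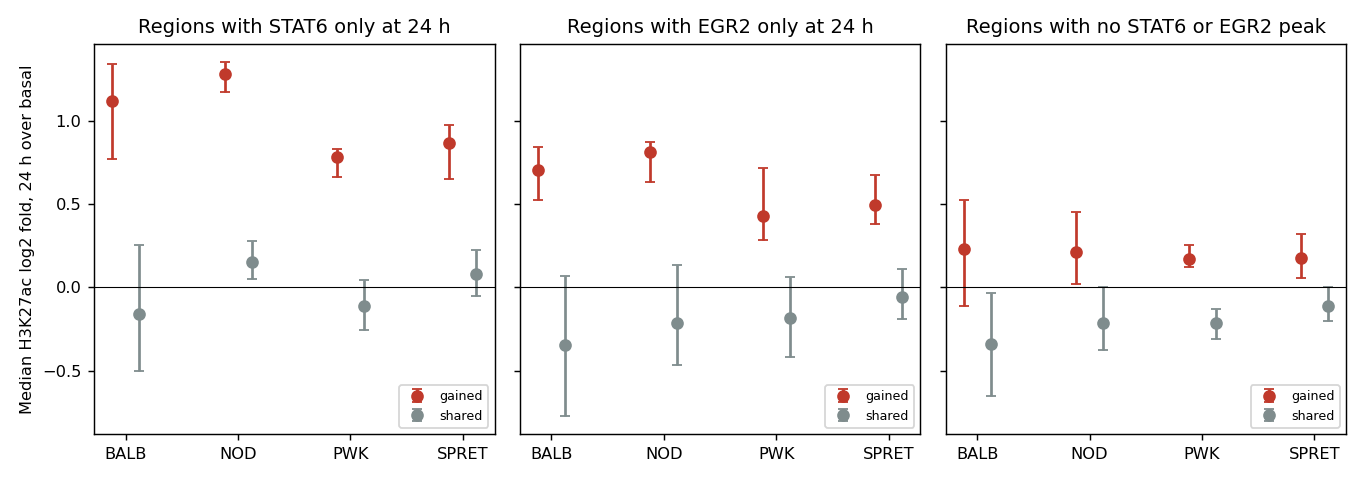
Median H3K27ac log2 fold of regions with gained (red) or shared (grey) PU.1 peaks in each strain, for regions with a STAT6 peak only at 24 h, an EGR2 peak only at 24 h, or no peak of either factor. Bars span the 4 pairs of a basal and a 24 h library. Gained regions with STAT6 only at 24 h have medians of 0.78 to 1.28, and shared ones -0.16 to 0.16.

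Few sites were gained or lost in all strains. Of the gained sites, 53.4% in BALB, 71.7% in NOD, 60.7% in PWK and 69.5% in SPRET were gained in that strain alone among the 4. Of the lost sites 55.6%, 47.7%, 61.9% and 71.0% were lost in that strain alone. Sites could also change the other way in another strain. Of the lost sites of BALB, 17.3% were gained and 12.3% lost in NOD, and 3.43% and 22.2% in PWK. Of the gained sites of NOD, 13.6% were lost and 5.90% gained in SPRET, and 14.4% and 19.1% in BALB. A total of 155 sites were gained in all 4 strains, and 114 of them were gained in C57 too, while 25 had no C57 peak and 14 were in both C57 lists. Of 152 sites lost in all 4 strains, 51 were lost in C57, 47 had no C57 peak and 44 were in both C57 lists. STAT6 and EGR2 peaks of at least 1 strain were each found at most of the recurrent gained sites at 24 h. A 24 h STAT6 peak of at least 1 strain overlapped 117 of the 155 gained sites, against 14 at basal, and 41 sites had it in all 4 strains. Of the lost sites 10 had a 24 h STAT6 peak. EGR2 of at least 1 strain overlapped 79 of the gained sites at basal already and 100 at 24 h, and 14 then 23 of the lost sites. In all 4 strains it was found at 24 h at 38 gained and 9 lost sites. The gained sites ranked higher in their lists, at a median of 64.6% from the strongest against 80.4% for the lost sites. No such count over strains is given for shared sites. Among 154 gained and 152 lost sites on nuclear chromosomes, the EGR motif occurred in 54.5% (95% binomial interval 46.3% to 62.6%) and 12.5%, the STAT6 motif in 25.3% (18.7% to 33.0%) and 2.63%, the AP-1 motif in 22.1% and 1.97%, and the full PU.1 motif in 6.49% (3.16% to 11.6%) and 21.1%. The PU.1 core occurred in 55.8% and 66.4%.

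H3K27ac was higher at 24 h at most of the recurrent gained sites. Of 43 gained sites within a region of all 4 tables, 38 had a positive log2 fold averaged over the strains, with a median of 1.23 and a range of -2.01 to 4.60. Of 33 such lost sites 4 had a positive mean fold, and the median was -0.38, where shared regions had medians of -0.37 to -0.13 in single strains and were mostly negative as well. Of all regions of BALB, NOD, PWK and SPRET, limma called H3K27ac higher in 1.6%, 0.0566%, 0.487% and 0.994%. It was called lower in 0.653%, 0.0%, 0.0482% and 0.192%. Among gained sites with a region, H3K27ac was called higher in 31 of 82 in BALB, 2 of 96 in NOD, 12 of 91 in PWK and 14 of 66 in SPRET, and lower in 1 in BALB. Among lost sites with a region (44, 54, 46 and 40), 1 passed the threshold, upwards, in BALB.

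Anks1, which encodes an ankyrin repeat adaptor protein, had the largest mean H3K27ac fold among the 43 gained sites. The site lies 39206 bp from its start, in an intron, and the sequence above shows 2 STAT6 motifs. H3K27ac was 0.73 and 1.19 tags in the basal libraries of BALB and 98.6 and 75.8 at 24 h. NOD had 3.32 and 0.79 against 78.1 and 122.7 tags, PWK 5.15 and 3.92 against 67.3 and 108.8, and SPRET 4.27 and 1.98 against 51.1 and 54.9. The groups were far apart in each strain, and the log2 folds of 5.49 ± 0.56 (SE), 5.15 ± 0.64, 3.98 ± 0.57 and 3.77 ± 0.51 passed the limma threshold in all 4, with adjusted p of 0.045 in NOD as the highest. STAT6 was present at 24 h in all 4 strains and at basal in 0, and EGR2 in 4 and 2. Il6st encodes gp130, the shared signalling receptor of the IL-6 family, and a gained site 56629 bp from its start had log2 folds of 4.03 ± 0.56 in BALB, 4.02 ± 0.74 in NOD, 3.14 ± 0.50 in PWK and 3.76 ± 0.51 in SPRET, with NOD alone not past the threshold (adjusted p 0.097). Its H3K27ac was 1.47 and 5.96 tags against 93.4 and 47.6 in BALB, and 10.3 and 18.8 against 129.3 and 132.7 in PWK.

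Other gained sites of all 4 strains with large H3K27ac folds lay near Socs1 (mean 3.21), an inhibitor of cytokine signalling through JAK kinases, near Otos (3.04), an inner ear protein gene, and near Lclat1 (2.97), an acyltransferase of cardiolipin. At Socs1, 4216 bp from its start, the tags were 5.88 and 1.79 against 20.3 and 17.2 in BALB, 0 and 0.79 against 30.4 and 17.5 in NOD, 1.72 and 0 against 18.2 and 21 in PWK and 0 and 1.32 against 15.9 and 6.46 in SPRET. The 24 h libraries were above the basal ones in each strain, and BALB (adjusted p 0.015) and PWK (0.038) passed the limma threshold while NOD (0.054) and SPRET (0.059) did not. At this site H3K4me2 passed in NOD and PWK, with log2 folds of 2.13 and 2.71. By PU.1 strength, the leading gained sites lay near Apobr, Thbs1, Nenf, Agpat3, Cmbl, Lama3, Lclat1, Osgin1, Wdr36 and Oxr1. Agpat3, an acyltransferase of phospholipid synthesis, had 3.67 and 7.74 tags against 21.8 and 38.6 in BALB, 0 and 8.73 against 30.4 and 69.2 in NOD and 0 and 5.48 against 43.8 and 59.2 in PWK, where BALB (adjusted p 0.0062) and PWK (0.020) passed. The site near Nenf, which encodes a secreted neurotrophic factor, had a mean fold of 1.74 and passed in no strain.

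The 2 strongest gained sites went the other way in H3K27ac. Both the Apobr site, at the start of this apolipoprotein B receptor gene, and the Thbs1 site, 99464 bp from the thrombospondin 1 start, had a basal PU.1 peak 112 to 344 bp away in all 4 strains. At Thbs1 H3K27ac was 117.6 and 132.3 tags at basal against 52.7 and 28.1 at 24 h in BALB and 141.3 and 161.9 against 70.9 and 61.4 in NOD, and the log2 folds were -1.67, -1.19, -1.32 and -1.08 in BALB, NOD, PWK and SPRET. At Apobr they were -1.02, -0.76, -0.50 and -0.35. None of these 8 folds passed the threshold (adjusted p 0.222 or more), although basal libraries were above the 24 h libraries in each strain. In all, 132 of the 155 gained sites had no basal peak within 500 bp in any strain.

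**Figure D5:**
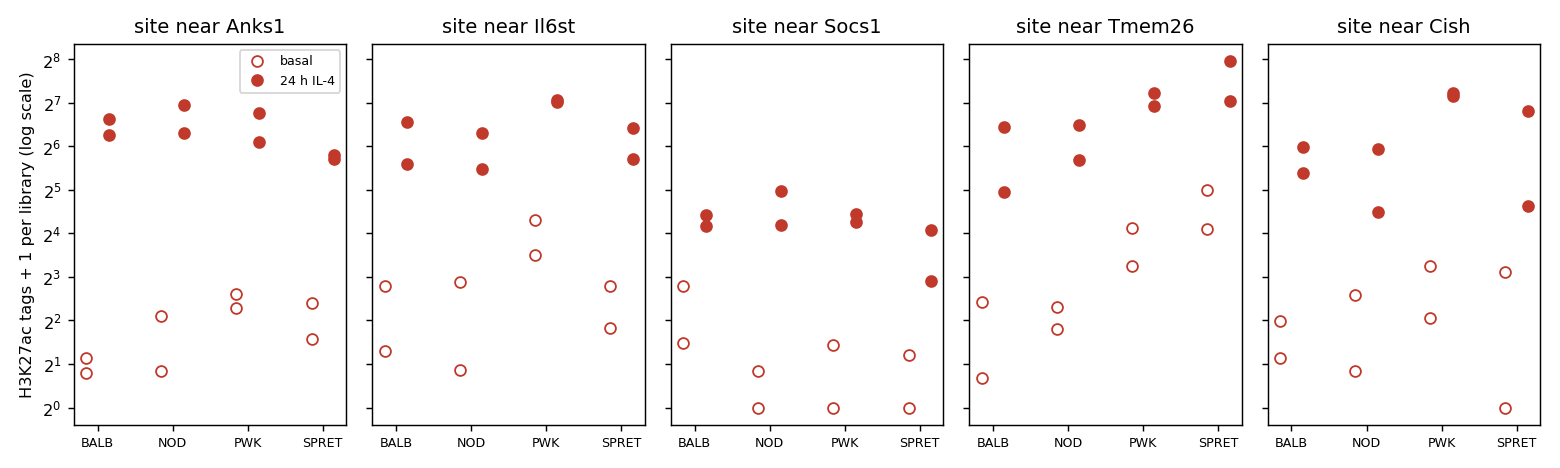
H3K27ac tags + 1 (log scale) in each basal (open) and 24 h IL-4 (filled) library at gained PU.1 sites near Anks1, Il6st, Socs1, Tmem26 and Cish. The Anks1, Il6st and Socs1 sites were gained in all 4 strains, the Tmem26 and Cish sites in BALB, NOD and PWK, and the 24 h libraries are above the basal libraries in every panel and strain.

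Lost sites showed smaller H3K27ac differences. By PU.1 strength they were led by sites near Tsc22d3, Lasp1, Bcl2l1, Zfp518a, Srgap2, Arfgef2, 4931440F15Rik, Tbl1xr1, Dusp2 and Mvb12b. At Tsc22d3, which encodes the glucocorticoid-induced protein GILZ, and at Bcl2l1, which encodes the survival protein Bcl-xL, the mean log2 folds were -0.30 and -0.42, with no strain past the threshold. The site near Srgap2, which encodes a GTPase-activating protein, went the other way, with 96.3 and 82.2 tags against 336.6 and 141.01 in BALB and 96.4 and 107.2 against 406.5 and 199.8 in NOD. Its log2 folds of 1.28 and 1.48 did not pass (adjusted p 0.531 and 0.279). The intronic site of Mvb12b, a subunit of an endosomal sorting complex, had the lowest mean among the 33 lost sites, -1.62. Its H3K27ac was 77.2 and 71.5 tags against 24.1 and 19.1 in BALB, 54.0 and 32.5 against 9.40 and 8.44 in NOD, 87.6 and 85.4 against 29.6 and 21 in PWK and 66.7 and 43.5 against 36.2 and 23.7 in SPRET. The 24 h libraries were below the basal ones in all 4 strains, and the adjusted p of limma was 0.115, 0.214, 0.146 and 0.421. Sites near N4bp3 (-1.42), Gcn1l1 (-1.07), Pstpip2 (-0.94) and Gk (-0.72) followed. At Gcn1l1, an activator of the amino acid stress kinase pathway, BALB had 41.9 and 37.5 tags against 19.6 and 15.7, and SPRET 30.8 and 19.1 against 11.5 and 7.54.

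PU.1 sites nearest to genes of the IL-4 response were gained more often than sites at large. The list, chosen with earlier results of these data known, held 30 genes such as Arg1, Retnla, Chil3, Mrc1, Socs1, Cish and Tmem26. Of the 24 h sites nearest to these genes, 24.2% were gained in BALB, 33.2% in NOD, 18.01% in PWK and 13.1% in SPRET, against 14.04%, 23.04%, 11.04% and 8.84% of all sites. Their basal sites were lost in 13.8%, 6.71%, 17.6% and 20.7% of cases, against 21.1%, 9.70%, 25.1% and 27.5%. The gained sites of this list were uneven between genes. Of 98 in BALB, 18 lay nearest to Myc, 15 to Klf4 and 12 to Tmem26. Arg1 had 3, and Retnla, Chil3 and Mrc1 had 1 each. Lost shares below those of all sites were not particular to this list, with 18.5%, 8.97%, 19.7% and 26.1% for macrophage lineage genes and 19.01%, 10.8%, 18.1% and 20.8% for inflammatory genes, of which NOD alone was above. Inflammatory genes of the NF-kB pathway (20 genes) had gained shares of 12.1%, 21.7%, 9.28% and 7.05%, interferon genes (19 found) 8.70%, 18.8%, 6.00% and 3.92%, macrophage lineage genes (20) 12.99%, 18.2%, 11.7% and 6.22%, lipid and LXR genes (15) 10.2%, 20.2%, 7.96% and 12.6%, and MHC class II genes (8) 15.6%, 28.3%, 8.11% and 7.69%. These lay near or below the share of all sites, apart from lipid genes in SPRET and MHC class II genes in BALB and NOD.

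Tmem26, a transmembrane protein gene of the same list, had 4 sites gained in BALB, NOD and PWK. At the site 538 bp from its start H3K27ac was 4.41 and 0.60 tags against 85.8 and 30.0 in BALB, 2.49 and 3.97 against 89.0 and 50.7 in NOD, 8.58 and 16.4 against 150.2 and 121.2 in PWK and 16.2 and 31.0 against 247.7 and 131.4 in SPRET. The log2 folds were 4.14, 4.03, 3.39 and 2.95, and those of BALB, PWK and SPRET passed the limma threshold (NOD adjusted p 0.053). STAT6 was found there at 24 h in all 4 strains and at basal in 0. In SPRET, where the PU.1 site was not called gained, H3K27ac was higher at 24 h as well. Cish, an inhibitor of cytokine signalling that STAT factors induce, had a site 11099 bp from its start with log2 folds of 4.14 in BALB, 3.51 in NOD, 4.54 in PWK and 4.16 in SPRET, of which NOD alone did not pass (adjusted p 0.148). Its tags were 2.94 and 1.19 against 62.5 and 41.0 in BALB and 8.58 and 3.13 against 142.8 and 148.9 in PWK. H3K4me2 at this Cish site was higher as well in BALB (3.95), NOD (2.18) and PWK (2.60), all past the threshold. At Slc7a2, an arginine transporter, the site 8094 bp from the start had folds of 3.34 in BALB, which passed, and of 2.46, 1.53 and 1.20 in NOD, PWK and SPRET, which did not.

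Il4ra, which encodes the IL-4 receptor alpha chain, had sites of both kinds. The site 14811 bp from its start was gained in all 4 strains, with log2 H3K27ac folds of 1.79 in BALB, 1.21 in NOD and 0.96 in PWK. The site 891 bp from its start was lost in BALB, NOD and PWK. There H3K27ac was 26.5 and 31.6 tags against 6.78 and 8.57 in BALB, 43.2 and 90.5 against 14.5 and 13.5 in NOD, 66.95 and 48.6 against 33.7 and 14.3 in PWK and 65.0 and 48.1 against 19.4 and 24.8 in SPRET. The 24 h libraries of both sites were apart from the basal ones in the strains measured, upwards at the gained site and downwards at the lost site, and no fold passed the threshold, the lowest adjusted p being 0.053 at the lost site in BALB. Among the inflammatory genes, a site 88121 bp from Nfkbiz, an inducible co-regulator of NF-kB, was lost in BALB, PWK and SPRET with H3K27ac folds of -1.77, -1.49 and -0.93. NOD, where the site was not lost, had the lowest fold, -2.19, and the lowest adjusted p of the 4 strains was 0.074. Spi1, which encodes PU.1 itself, had a site 2061 bp from its start that was lost in BALB, PWK and SPRET. The site was weak, at 71.2% to 85.3% from the strongest, and a 24 h peak lay 735 to 754 bp away. No H3K27ac region covered it. Spi1 had gained sites in 3 strains and lost sites in 4, and 12 shared sites in BALB.

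Some sites had no PU.1 peak in any other strain, C57 included. They made up 10.8% of gained sites in BALB, 16.9% in NOD, 21.5% in PWK and 36.9% in SPRET. Of lost sites they made up 13.2%, 16.5%, 16.9% and 38.9%, and they were not counted among shared sites. The strongest of them, near Dop1a (BALB), Tpm3 (NOD), Ccr2 (PWK) and Vcpip1 (SPRET) among gained and near S100a8, Arrb2, Cln3 and 4933412E24Rik among lost sites, lay 17 to 190 bp from a PU.1 peak of another strain. A further condition was set after these values were seen. Sites had to lie more than 1000 bp from any PU.1 peak of another strain or of the strain's other list, and sites on chromosome 18 were left out. The strongest gained sites were then near Map7 (BALB), Glra4 (NOD), Minar1 (PWK) and Fbp1 (SPRET), and the strongest lost sites near Flrt3, Arntl, Tfcp2l1 and Dlg2. Fbp1 encodes fructose-1,6-bisphosphatase 1 of gluconeogenesis and is a gene of the IL-4 response list. Its SPRET site, 7105 bp from the start, had 0.85 and 0 tags of H3K27ac at basal and 229.2 and 116.3 at 24 h. The log2 fold was 6.92 ± 0.54 (limma adjusted p 2.73e-05), and the site overlapped STAT6 and EGR2 peaks of SPRET at 24 h and not at basal. The Minar1 site of PWK had 3.43 and 14.9 tags against 16.2 and 46.8, with a log2 fold of 1.77 (adjusted p 0.380), and the Arntl site of NOD, near a core clock gene, had 134.7 and 17.5 tags against 29.7 and 1.69, with a log2 fold of -2.46 (adjusted p 0.417).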

How the data were processed

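ChIP-seq of PU.1 and of companion factors was taken as the peak lists that the authors deposited with a score for each peak. Per the labels and the study's methods, reads were aligned with Bowtie2 to each strain's genome, positions were shifted to mm10 with MMARGE, peaks of 200 bp were called with HOMER in each replicate, and replicates were combined by IDR into 1 list per group. Peak strength is the rank of the deposited score, ties by the deposited count. The histone tables hold signal that the authors counted within 1000 bp regions around ATAC-seq peaks and scaled to 10000000 tags per library, and whole reads were recovered from 100% of the values within 0.1 reads. Peaks were overlapped by at least 1 bp with a Python routine, which was checked against bedtools 2.31.1 on the PU.1 lists of BALB. Gene starts and exons of protein-coding genes were from GENCODE M21, and a promoter was within 1000 bp of a start. Stretches of sequence were read with pysam 0.24.0, and intervals for shares are exact binomial 95% intervals that cover counting error only.

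H3K27ac and H3K4me2 were tested per region with limma 3.58.1 in R 4.3.3 (two-sided, moderated with trend, log2(tags + 1), Benjamini-Hochberg over all regions of a strain's table, threshold 0.05), with 2 libraries against 2. The labels call the libraries biological replicates, and the p-values measure the spread between these libraries. A region belonged to a class when it held PU.1 peaks of that class alone. Alternatives were edgeR 4.0.16 on recovered reads, another pseudocount, a filter at 16 tags, median-ratio scaling, a replicate block, other region classes and other overlap rules. The scripts used Python 3.11.15, numpy 2.4.6, pandas 2.3.3, scipy 1.17.1 and matplotlib 3.10.9, and the fits were tested on simulated data.

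Named sites were the 10 strongest gained and lost in all 4 strains, the 5 with the largest mean H3K27ac fold in the direction of PU.1, the strongest site private to each strain, and sites nearest to genes of 6 lists, of which those gained or lost in at least 3 strains were read. The members, gene lists and rules were chosen with earlier results of these data known. Of 20 interferon genes 19 were found in the annotation. The histone tables of C57, its time course and the EGR2 knockout were not used here.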

Additional observations from a re-analysis of the deposited data

Results flagged for a closer look

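The balance of gained and lost PU.1 peaks had opposite signs between strains. The 24 h list minus the basal list came to a gained minus lost difference of 14658 peaks in NOD, and of -7385 in BALB, -13679 in PWK and -20737 in SPRET. Each strain had 1 list per condition, so the difference between strains was not tested, and the depth of the PU.1 libraries is not known from the lists.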

How the results depend on the processing

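The direction that carried the H3K27ac and H3K4me2 results was kept: the gained median exceeded the shared median in all 40 values per mark under the alternatives, from 0.22 to 0.92 for H3K27ac and from 0.07 to 0.41 for H3K4me2. The counts of called regions moved by over 1.5 times under many of them, and the cause was not tested. With 2 libraries per group and PU.1 depth unknown, counts of single regions and the balance of gained and lost peaks are the least firm values.

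The gained and lost percent of peaks were 14.5 and 21.5 for BALB, 23.4 and 10.1 for NOD, 11.5 and 25.4 for PWK and 9.21 and 27.8 for SPRET when an overlap of 50% of both peaks was required. With centres within 500 bp they were 13.3 and 20.4, 22.3 and 9.08, 10.3 and 24.3, and 8.11 and 26.8. With lists of equal length, which makes the gained and lost shares equal by construction, both were 16.6, 15.2, 15.9 and 15.1, and for the stronger 50% of a list they were 2.66 and 2.15, 4.08 and 1.10, 2.25 and 2.46, and 1.48 and 2.97.

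For H3K27ac in BALB, gained minus shared was 0.57 with a pseudocount of 5 and 0.50 with regions of mixed classes. In PWK these were 0.44 and 0.40, and in SPRET 0.27 and 0.22, with 0.31 at 16 tags or more. Lost minus shared in SPRET turned to 0.0019 with a pseudocount of 5, and was -0.028 at 16 tags and -0.025 with mixed classes. Gained regions called higher in NOD were 36 with a pseudocount of 5, 50 at 16 tags, 0 with median-ratio scaling and 33 by edgeR, and in PWK 27 with median-ratio scaling and 39 by edgeR. The lost regions called lower in PWK were 5 with a pseudocount of 5, 6 at 16 tags, 0 with median-ratio scaling and 1 by edgeR, and in SPRET 22 at 16 tags and 3 with median-ratio scaling.

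For H3K4me2 in BALB, gained minus shared was 0.19 at 16 tags and 0.19 with mixed classes, and in SPRET 0.071 with mixed classes. Gained regions called higher were 67 with median-ratio scaling and 89 by edgeR in BALB, 29, 15 and 37 at 16 tags, with median-ratio scaling and by edgeR in NOD, 29, 8 and 11 in PWK and 2 by edgeR in SPRET. The lost regions called lower were 1 with median-ratio scaling and 1 by edgeR in BALB and 0 with either in NOD. Lost minus shared in NOD was -0.0037 with a pseudocount of 5, -0.015 at 16 tags, -0.014 with median-ratio scaling, -0.015 by edgeR and -0.020 with mixed classes.

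The replicate numbers were not stated to pair libraries. Deviations of same-numbered libraries correlated at 0.079 to 0.492. With the replicate block the gained regions called higher for H3K27ac were 482, 1180, 502 and 263 in BALB, NOD, PWK and SPRET, and the lost regions called lower 182, 302, 287 and 153. For H3K4me2 with the block the gained regions were 11, 147, 261 and 86, and the lost regions 5 in PWK and 1729 in SPRET.

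Without 1 library in turn, in the order BALB, NOD, PWK and SPRET, the H3K27ac counts of gained regions called higher were 145 to 202, 0 to 408, 0 to 299 and 0 to 47, and of lost regions called lower 12 to 170, 0 to 24, 0 to 27 and 0 to 1. Gained minus shared was 0.56 to 0.92, 0.52 to 0.69, 0.48 to 0.64 and 0.34 to 0.39, and lost minus shared was -0.016 to 0.11, -0.053 to 0.055, -0.034 to 0.045 and -0.023 to 0.019. The H3K4me2 counts of gained regions were 3 to 44, 0 to 267, 0 to 88 and 1 to 37, and of lost regions 0 to 1934, 0 to 499, 0 to 0 and 1 to 885. Gained minus shared was 0.27 to 0.41, 0.15 to 0.27, 0.27 to 0.34 and 0.13 to 0.25, and lost minus shared was -0.10 to 0.031, -0.023 to -0.0037, -0.073 to 0.025 and -0.073 to 0.035. A lone library was taken to vary like the others.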
